A study of Homo sapiens with 6 samples.

Results

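The miR-34 family was measured in A549 cells after SMARCA4 had been put back. Its members were taken as every row of the deposited miRNA table named for miR-34a, miR-34b or miR-34c, on either arm, a rule by name that uses no measured value, although the family was chosen with earlier results of these data known. It found 6 of the 787 rows, which are hsa-miR-34a-5p, hsa-miR-34a-3p, hsa-miR-34b-5p, hsa-miR-34b-3p, hsa-miR-34c-5p and hsa-miR-34c-3p. A549, an established line grown from a human lung adenocarcinoma, is known to lack functional SMARCA4. SMARCA4, also called BRG1, is an ATPase of the SWI/SNF chromatin remodelling complex. Of 6 small RNA libraries, 3 came from cells transfected with pcDNA4-SMARCA4 and 3 from cells transfected with empty pcDNA4, all taken 48 h after delivery of the plasmid with a lipid reagent. Both groups therefore share the line, the plasmid backbone and the transfection, the labels mention no selection of the cells that took up plasmid, and all replicates are of a single cell line.

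The miR-34 miRNAs are known as tumour suppressors that repress mRNAs of cell cycle and survival proteins such as CDK6, MET and BCL2. miR-34a is made in many tissues from its own locus, while miR-34b and miR-34c are processed from a shared primary transcript and are abundant in ciliated airway epithelium. Each hairpin can give 2 mature miRNAs, the 5p and the 3p arm, of which usually a single one is retained in Argonaute in quantity. Targets are recognised mainly through the seed, bases 2 to 8 counted from the 5′ end.

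The hairpin MIR34A lies on the minus strand at chr1:9151668-9151777 (GRCh38, GENCODE 29), in an exon of the lincRNA gene MIR34AHG (chr1:9148011-9198906, same strand). MIR34B lies on the plus strand at chr11:111512938-111513021 and MIR34C at chr11:111513439-111513515 on the same strand, with 417 bases between them. No other gene of that annotation overlaps either of these hairpins. Mature sequences from RefSeq (GRCh38.p14) matched 5 of the 6 arms, all but miR-34c-5p. They are printed 5′ to 3′ with the seed in capitals, since the seeds show which arms of the family, and which other miRNAs of the table, would read the same target sites.

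miR-34a-5p: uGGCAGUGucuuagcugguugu
miR-34b-5p: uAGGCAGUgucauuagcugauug
miR-34a-3p: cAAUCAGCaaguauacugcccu
miR-34b-3p: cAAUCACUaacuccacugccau
miR-34c-3p: aAUCACUAaccacacggccagg
miR-449a: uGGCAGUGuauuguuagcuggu
miR-449b-5p: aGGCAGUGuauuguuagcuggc
miR-449c-5p: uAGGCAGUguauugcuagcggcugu
miR-2682-5p: cAGGCAGUgacuguucagacguc

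The 5p seeds fall into 2 groups whose windows are shifted by a single base. miR-34a-5p, miR-449a and miR-449b-5p carried GGCAGUG, while miR-34b-5p, miR-449c-5p and miR-2682-5p carried AGGCAGU. These 6 were the rows with either seed among the 689 rows of the table that matched a mature sequence. miR-34c-5p had no matched sequence, so it is not placed in either group here. The seeds of the 3p arms were each found in no other matched row. miR-34b-3p and miR-34c-3p share a run of 10 bases, from base 2 of the first and base 1 of the second, and differ by 6 edits in all. miR-34a-5p and miR-34b-5p differ by 4 edits. No source used here says how the authors counted reads that could match more than 1 of these arms.

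The values are normalized read counts per mature miRNA, from which whole reads could be recovered. The libraries held between 701885 and 1079944 recovered reads, apart from SMARCA4 replicate 2 with 7274329. Where no read was seen up to 3 may have been missed, worth between 4.91 and 7.84 normalized counts in those 5 libraries and 1.27 in SMARCA4 replicate 2, for counting error only. SMARCA4 replicate 2 also differed in profile. Its Pearson's r of log2(value + 1) was 0.9499 with SMARCA4 replicate 1 and 0.9496 with SMARCA4 replicate 3, which had 0.9705 with each other. SMARCA4 replicates 1 and 3 had r of 0.9516 to 0.9584 with empty vector replicates 1 and 3. With empty vector replicate 2 they had 0.942 and 0.9445. SMARCA4 mRNA was not analysed here. Of 5 epithelial marker miRNAs of the miR-200 family all were detected, with a summed level of 385 to 581 normalized counts in SMARCA4 libraries and 350 to 672 in empty vector libraries. Of these 5, 3 were on the higher side with SMARCA4 and 2 on the lower. miR-141-3p rose, at 182 ± 30.3 in SMARCA4 cells and 31.4 ± 10.8 in empty vector cells (SD, n = 3 each; limma adjusted p = 0.0124). The most abundant, miR-200b-3p, was lower without overlap but did not pass, at 190 ± 51.8 in SMARCA4 cells and 422 ± 123 in empty vector cells (SD, n = 3 each; log2 fold change −1.14, limma adjusted p = 0.109). miR-200a-3p was higher without overlap and did not pass either (log2 fold change 1.27, limma adjusted p = 0.178). Groups were apart for 3 of the 5 markers, miR-141-3p included, and for 31.1% of all tested miRNAs. Of 6 blood markers 2 were listed, at summed levels of 31.7 to 88.9 in SMARCA4 libraries and 5.71 to 47.1 in empty vector libraries, and of 5 muscle, liver and neuron markers 2 were listed, both at 0. Their part in the results below was not tested. In bulk RNA a lower level cannot be told apart from fewer cells that hold the miRNA. Levels of different miRNAs in a library also depend on how well the adapters ligate to each, so the order of arms below describes these libraries.

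In both groups the family consisted mainly of miR-34a-5p and miR-34c-5p. With SMARCA4, miR-34a-5p made up 77.5%, 81.7% and 74.1% of all miR-34 reads in replicates 1, 2 and 3, against 64.3%, 57.4% and 65.2% in empty vector replicates 1, 2 and 3. miR-34c-5p made up 16.8%, 14.8% and 18.4% in the SMARCA4 libraries and 31.2%, 36.9% and 30.7% in the empty vector libraries. The other 4 arms together held 3.47% to 7.47% with SMARCA4 and 4.19% to 5.78% with empty vector. The shares of both leading arms did not overlap between the groups, and since they add up to nearly the whole family they are not separate results. Levels, which are another measure than shares, did not overlap between the groups for 31.1% of all tested miRNAs. How often shares within other families separate the groups was not examined. The summed level of the 6 arms was 981 ± 176 normalized counts in SMARCA4 cells and 1038 ± 127 in empty vector cells (SD, n = 3 each). Per 1000000 recovered reads the sum was 519, 381 and 453 in SMARCA4 replicates 1, 2 and 3, against 713, 538 and 553 in empty vector replicates 1, 2 and 3. On that scale the groups did not overlap, so how close the family totals are depends on the scaling.

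**Figure D1:**
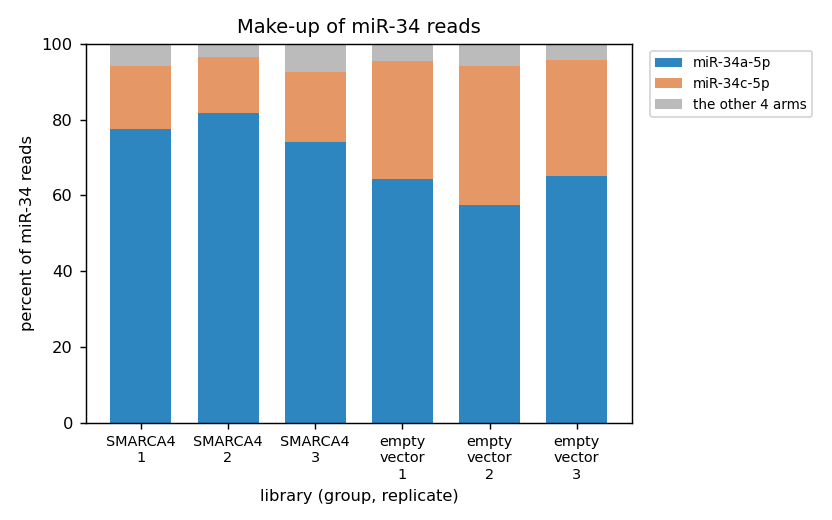
Percent of all miR-34 reads (vertical axis) that came from miR-34a-5p, miR-34c-5p and the other 4 arms, for the 3 SMARCA4 and the 3 empty vector libraries (1 bar each). The miR-34c-5p part is 14.8% to 18.4% in the SMARCA4 bars and 30.7% to 36.9% in the empty vector bars.

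None of the 6 arms passed the test for a change with SMARCA4, which was limma across 637 miRNAs with adjusted p-values under 0.05. Over all tested miRNAs that rule called 9, or 1.41%, with 6 that rose (0.942%) and 3 that fell (0.471%), and 144 had an unadjusted p under 0.05, with miR-34c-5p and miR-34c-3p making 2 of the 144. Run on the recovered reads, edgeR called 0 of the 6 arms and 8 of all 637 miRNAs. DESeq2 called 1 arm, miR-34c-5p, and 44 of the 425 miRNAs to which it gave an adjusted p. miR-34b-3p was not among those 425. All 6 arms passed the filter of a mean of at least 1 normalized count. The SMARCA4 and empty vector values were fully apart in 2 of the 6 arms, namely miR-34c-5p, lower with SMARCA4, and miR-34c-3p, higher with SMARCA4. Groups did not overlap for 31.1% of all tested miRNAs, so a share of 2 in 6 is near the background.

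**Figure D2:**
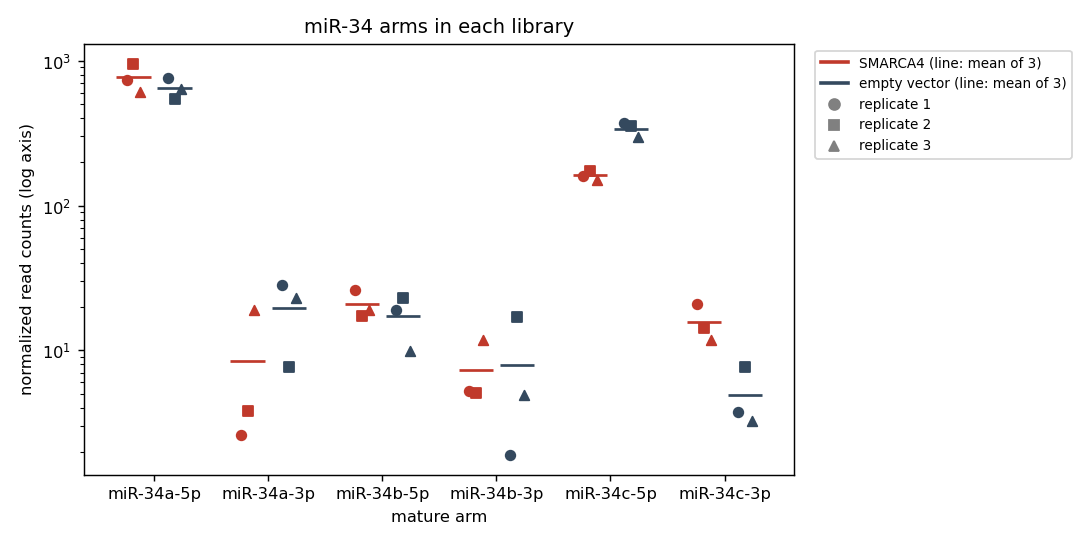
Normalized read counts (log axis) of the 6 miR-34 arms in each library, SMARCA4 to the left of empty vector for every arm, with 1 symbol per replicate and a line at the mean of 3. The groups are apart for miR-34c-5p (151 to 174 with SMARCA4, 299 to 370 with empty vector) and miR-34c-3p (11.8 to 20.9 with SMARCA4, 3.27 to 7.61 with empty vector) and overlap for the other 4 arms.

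miR-34a-5p, the arm of the MIR34A hairpin that is usually retained in Argonaute, had 737, 956 and 609 normalized counts in SMARCA4 replicates 1, 2 and 3, against 762, 548 and 636 in empty vector replicates 1, 2 and 3. The groups overlapped, and the highest value was that of SMARCA4 replicate 2, the deepest library. The mean was 767 ± 175 in SMARCA4 cells and 649 ± 108 in empty vector cells (SD, n = 3 each), a log2 fold change of 0.23 (SE 0.29, 95% interval −0.42 to 0.89, limma adjusted p = 0.668). Without SMARCA4 replicate 2 the log2 fold change was 0.06, and it was −0.09 when every library was scaled to an equal total, a scaling that moved the median of all tested miRNAs by −0.26. It ranked between 82 and 100 of the 787 rows in every library.

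miR-34a-3p, the scarce arm of the same hairpin, had 2.61, 3.80 and 18.9 normalized counts with SMARCA4, against 28.3, 7.61 and 22.9 with empty vector. These values rest on 1, 9 and 8 reads in the SMARCA4 libraries and on 15, 4 and 14 in the empty vector libraries, and SMARCA4 replicate 3 lay among the empty vector values. The log2 fold change was −1.37 (SE 0.77, 95% interval −3.11 to 0.36, limma adjusted p = 0.315), and it lay between −2.13 (SMARCA4 replicate 3 left out) and −0.90 (SMARCA4 replicate 1 left out).

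The MIR34B hairpin gave few reads from either arm. miR-34b-5p had 26.1, 17.3 and 18.9 normalized counts with SMARCA4, against 18.9, 22.8 and 9.81 with empty vector. miR-34b-3p had 5.23, 5.07 and 11.8 with SMARCA4, against 1.89, 17.1 and 4.91 with empty vector. Neither arm separated the groups. The log2 fold change of miR-34b-5p was 0.32 (95% interval −0.78 to 1.41, limma adjusted p = 0.723), and that of miR-34b-3p was 0.22 (95% interval −1.47 to 1.91, limma adjusted p = 0.904). The sign of miR-34b-3p was the other way at equal library totals (−0.04), by edgeR (−0.20) and by DESeq2 (−0.16), and also without SMARCA4 replicate 3 (−0.14) or without empty vector replicate 1 (−0.40).

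miR-34c-5p, the leading arm of the MIR34B and MIR34C locus, had 159, 174 and 151 normalized counts in SMARCA4 replicates 1, 2 and 3, against 370, 352 and 299 in empty vector replicates 1, 2 and 3. Every SMARCA4 library lay under every empty vector library, and the values within each group were close together. The mean was 161 ± 11.4 in SMARCA4 cells and 340 ± 36.6 in empty vector cells (SD, n = 3 each), which is 2.11-fold lower with SMARCA4. The log2 fold change was −1.07 (SE 0.28, 95% interval −1.70 to −0.44), with a limma adjusted p of 0.0828, so the difference did not pass over all miRNAs. The reads behind it were 61, 411 and 64 in the SMARCA4 libraries and 196, 185 and 183 in the empty vector libraries. Per 1000000 recovered reads it was at 86.9, 56.5 and 83.4 with SMARCA4, against 222, 198 and 169 with empty vector. Without SMARCA4 replicate 2 the adjusted p was 0.0438, which passes, and without any other single library it was between 0.168 and 0.236. DESeq2 on the recovered reads gave an adjusted p of 0.0327 and edgeR gave 0.0826, and the log2 fold change stayed between −1.39 and −1.01 under all 18 alternatives. The settings that passed it also called more miRNAs in all. Leaving out SMARCA4 replicate 2 called 41 of 637 and DESeq2 44 of the 425 with an adjusted p, against 9 of 637 by the main test.

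miR-34c-3p, the other arm of that hairpin, had 20.9, 14.4 and 11.8 normalized counts in the SMARCA4 libraries, against 3.77, 7.61 and 3.27 in the empty vector libraries. Every SMARCA4 library lay above every empty vector library, opposite to the 5p arm. The values rest on 8, 34 and 5 reads with SMARCA4 and on 2, 4 and 2 reads with empty vector, where 2 of the 3 libraries were under the limit of 3 reads. The mean was 15.7 ± 4.70 in SMARCA4 cells and 4.88 ± 2.37 in empty vector cells (SD, n = 3 each), with a log2 fold change of 1.54 (SE 0.54, 95% interval 0.33 to 2.75, limma adjusted p = 0.134). With a pseudocount of 5 the log2 fold change was 1.07. With limma array weights, which give each library its own weight, the adjusted p was 0.0410. Array weights called 90 of the 637 tested miRNAs, against 9 without them.

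The order of the arms followed from these values. miR-34a-5p was above miR-34c-5p in 6 of 6 libraries, and miR-34c-5p was above each of the other 4 arms in 6 of 6. With SMARCA4 the next in mean level were miR-34b-5p (20.8 ± 4.71), miR-34c-3p (15.7 ± 4.70), miR-34a-3p (8.44 ± 9.07) and miR-34b-3p (7.37 ± 3.84), where each overlapped its neighbour in range. With empty vector they were miR-34a-3p (19.6 ± 10.7), miR-34b-5p (17.2 ± 6.67), miR-34b-3p (7.97 ± 8.06) and miR-34c-3p (4.88 ± 2.37), again with overlap between neighbours (normalized counts, SD, n = 3 each).

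Ratios of arms within a library depend on how libraries are scaled to each other only through the 1 added to each value. The ratio of miR-34a-5p to miR-34c-5p, the leading products of the 2 loci, was 4.62, 5.50 and 4.03 in SMARCA4 replicates 1, 2 and 3, against 2.06, 1.56 and 2.13 in empty vector replicates 1, 2 and 3. The balance thus lay further towards miR-34a-5p in every SMARCA4 library. The difference in the mean log2 ratio was 1.30, or 2.46-fold, with an exact two-sided permutation p of 0.1, the smallest that 3 against 3 libraries allow. It stayed between 1.16 and 1.41 when any single library was left out. This difference is made up of the log2 fold changes of the 2 arms, 0.23 for miR-34a-5p and −1.07 for miR-34c-5p, so it is not a separate result. How often the ratios of other pairs of miRNAs separate the groups was not examined.

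Within the MIR34C hairpin the 3p arm held a larger share of reads with SMARCA4. It was 11.6% (95% Wilson interval 5.99% to 21.2%), 7.64% (5.52% to 10.5%) and 7.25% (3.13% to 15.9%) in SMARCA4 replicates 1, 2 and 3. In empty vector replicates 1, 2 and 3 it was 1.01% (0.277% to 3.61%), 2.12% (0.826% to 5.31%) and 1.08% (0.297% to 3.86%). The shares did not overlap between groups, but the interval of SMARCA4 replicate 3 reached into those of the empty vector libraries, and such intervals cover counting error only. On the log2 scale, with 1 added to each value, the ratio of the 5p to the 3p arm averaged 3.32 ± 0.39 with SMARCA4 and 5.92 ± 0.50 with empty vector (SD, n = 3 each). The difference was −2.61, with an exact two-sided permutation p of 0.1, again the smallest possible, and it was −2.12 with a pseudocount of 5.

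**Figure D3:**
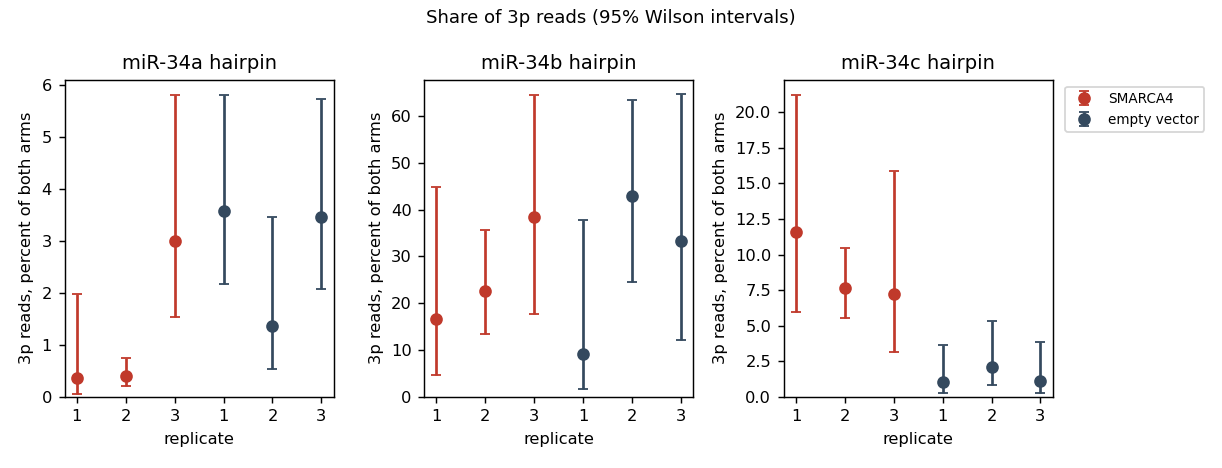
Reads of the 3p arm as a percent of the reads of both arms (vertical axes, each with its own scale) for the miR-34a, miR-34b and miR-34c hairpins, by library, with 95% Wilson intervals. For miR-34c the 3 SMARCA4 points lie at 7.25% to 11.6% and the 3 empty vector points at 1.01% to 2.12%, while the groups overlap for the other hairpins.

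The neighbouring MIR34B hairpin and the MIR34A hairpin gave no such separation. The 3p share of miR-34b was 16.7%, 22.6% and 38.5% in the SMARCA4 libraries, against 9.09%, 42.9% and 33.3% in the empty vector libraries, on between 9 and 53 reads of both arms per library. The 3p share of miR-34a was 0.353%, 0.396% and 3.01% with SMARCA4, against 3.58%, 1.37% and 3.47% with empty vector. In miR-34a the mean log2 ratio of 5p to 3p was higher with SMARCA4, the direction opposite to that in miR-34c, but SMARCA4 replicate 3 lay among the empty vector libraries.

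To set these ratios against all others, the log2 ratio of the 5p to the 3p arm was fitted with limma for each of the 155 hairpin names with both arms tested, a fit added after the values had been seen. It called 5 of these names, or 3.23%, and 38 had an unadjusted p under 0.05. Arms were paired by name only, so miR-181a-2-3p, a separate row, had no part in the miR-181a ratio. miR-34c was among the 5 (difference −2.61, SE 0.50, limma adjusted p = 0.0417), with 2 names at a smaller p. The others called were miR-181a and miR-191, with a larger 5p part in SMARCA4 cells, and miR-152 and miR-141, with a smaller one. The ratio of miR-34a differed by 1.61 (SE 0.86, limma adjusted p = 0.294) and that of miR-34b by 0.10 (SE 0.76, limma adjusted p = 0.922). The groups did not overlap for 50 of the 155 ratios, or 32.3%, with miR-34c among them and the other 2 not. The miR-34c call was lost when any of 5 single libraries was left out, and each of those fits called 0 of the 155 ratios. The limma adjusted p of miR-34c was then 0.0938 without SMARCA4 replicate 1 and 0.111 without SMARCA4 replicate 3. Of the empty vector libraries, leaving out replicate 1 gave 0.160, leaving out replicate 2 gave 0.105 and leaving out replicate 3 gave 0.111. With SMARCA4 replicate 2 left out the miR-34c call held, at 0.0430, and 10 of the 155 ratios were called. The difference itself kept its sign, between −2.89 and −2.39.

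**Figure D4:**
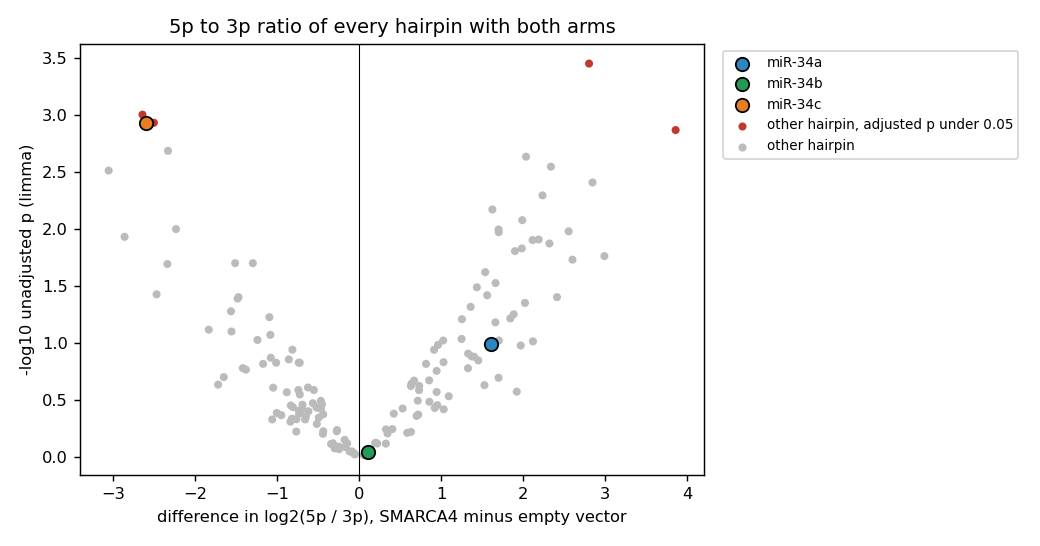
Difference in the log2 ratio of 5p to 3p arm between SMARCA4 and empty vector cells (horizontal axis) against −log10 of the unadjusted limma p (vertical axis), with 1 point for each of 155 hairpin names. miR-34c, at −2.61, is among the 5 names that passed, while miR-34a at 1.61 and miR-34b at 0.10 did not.

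The 4 other rows with a miR-34 5p seed were scarcer than miR-34c-5p. The miR-449 hairpins lie in an intron of CDC20B on chromosome 5 and are, like miR-34b and miR-34c, known for their abundance in multiciliated airway cells. miR-449c-5p had 20.9, 27.0 and 21.2 normalized counts with SMARCA4, against 9.43, 15.2 and 6.54 with empty vector. The groups did not overlap, but the difference did not pass (log2 fold change of 1.14 ± 0.48 (SE), limma adjusted p = 0.201). miR-449a had 7.84, 11.4 and 9.44 normalized counts with SMARCA4, against 5.66, 1.90 and 11.4 with empty vector (log2 fold change 0.75, limma adjusted p = 0.502). miR-449b-5p was seen in at most 4 reads in any library. miR-2682-5p had 52.3, 112 and 42.5 normalized counts with SMARCA4, against 88.6, 129 and 108 with empty vector, with overlapping groups (log2 fold change −0.76, limma adjusted p = 0.317). The largest of these rows, miR-2682-5p, was thus on the lower side with SMARCA4, as miR-34c-5p was, and miR-449c-5p on the higher side.

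**Figure D5:**
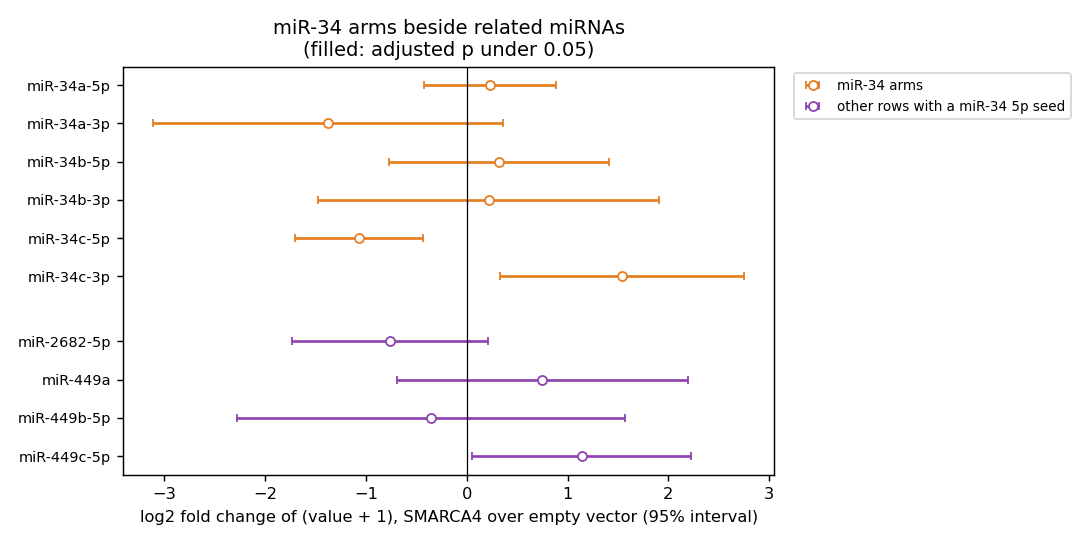
log2 fold change of (value + 1), SMARCA4 over empty vector, with 95% intervals from limma, for the 6 miR-34 arms and the 4 other rows with a miR-34 5p seed. None of the 10 passed over all miRNAs, so all symbols are open, while the intervals of miR-34c-5p (−1.70 to −0.44) and miR-34c-3p (0.33 to 2.75) leave out 0 on opposite sides and that of miR-449c-5p lies above 0.

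The miRNAs whose pattern over the 6 libraries was most like that of each arm were found by Pearson's r of log2(value + 1), among 420 others with a mean of at least 10, as a description. This was done for 5 of the 6 arms, since miR-34b-3p had a mean of 7.67. For miR-34c-5p they were miR-1303 (r = 0.98), miR-411-3p (0.97) and miR-1185-1-3p (0.97), with log2 fold changes of −1.72, −1.99 and −0.95. For miR-34c-3p they were miR-181c-5p (0.97), miR-33b-5p (0.97) and miR-361-3p (0.96), with log2 fold changes of 1.46, 0.91 and 1.10. For miR-34a-5p the nearest were miR-2116-3p (0.95), miR-3176 (0.94) and miR-26b-5p (0.93). For miR-34a-3p they were miR-2277-5p (0.96), miR-548e-3p (0.95) and miR-615-3p (0.93), and for miR-34b-5p they were miR-887-3p (0.82), miR-33b-5p (0.73) and miR-34c-3p (0.67). These miRNAs were picked from the 420 for their r, so neither the size of r nor the sign of their fold changes is a test.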

How the data were processed

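Small RNA was sequenced from 3 SMARCA4 and 3 empty vector cultures, and titles gave the groups and replicate numbers. Replicates are independent biological ones, per the series' design text. The library kit was TruSeq small RNA, per the labels' protocols. The submitters' processing notes name bcl2fastq 2.18.0.12 and GRCh38. No source used here gives the trimmer, aligner, counter or miRNA annotation. The deposited values are a normalized signal, in a table named for TMM scaling, and each is a whole number of reads times a factor shared by its library. Reads came out whole for 100% of values, within 1e-06 reads. Amplified reads are not independent molecules.

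limma 3.58.1 (R 4.3.3, mean-variance trend, group as the only term) was run on log2(value + 1) over 637 miRNAs with a mean of at least 1, with Benjamini-Hochberg adjustment and a threshold of 0.05. Fold changes on that scale understate changes of scarce miRNAs. The arm ratio fit used limma without the trend. The 18 alternatives were other pseudocounts, filters and scalings, limma without trend or with array weights, edgeR 4.0.16 and DESeq2 1.42.0 on recovered reads, a replicate block and each library left out. Code was tested on simulated data. Ratios had exact permutation tests. Arms were named in full, with the miRNAs most alike in pattern or adjacent in level. Some planned results are not reported here. Members and marker lists were chosen with earlier results of these data known.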

Additional observations from a re-analysis of the deposited data

How the results depend on the processing

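The number of miRNAs called, 9 of 637, was 23 of 787 with no filter on low values and 90 of 637 with array weights. It was 44 of the 425 with an adjusted p by DESeq2, and between 0 and 41 of 637 with a single library left out. miR-34c-5p passed under 4 of 18 alternatives, with log2 fold changes of −1.07 (no filter, adjusted p = 0.0224), −1.11 (array weights, 0.0158), −1.09 (DESeq2, 0.0327) and −1.12 (without SMARCA4 replicate 2, 0.0438), and ranged from −1.16 to −1.01 with a library left out. miR-34c-3p passed under 1, array weights (1.74). The sign of miR-34a-5p changed with libraries rescaled to the same total (−0.093). That of miR-34b-3p changed with the same scaling (−0.035), edgeR (−0.20), DESeq2 (−0.16) and single libraries left out (−0.40 to 0.93), and that of miR-34b-5p without empty vector replicate 3 (range −0.019 to 0.55). The number of arm ratios called, 5, was 12 with a pseudocount of 5, 16 with a mean of at least 10 and 0 to 10 with a library left out, and the miR-34c arm ratio then differed by −2.89 to −2.39. Fewer libraries, or more or fewer miRNAs, entered some of these fits, though not the fit with array weights. The cause of these differences was not tested. Replicate numbers were not taken to pair the libraries, since no label says that they do and deviations of same-numbered libraries correlated at 0.07, 0.09 and 0.01, none over 0.1. As a hint the other way from the data, 5 of 6 libraries correlated best with their own number. With a replicate block, 13 miRNAs and 0 arm ratios were called, miR-34c-5p had an adjusted p of 0.0692, and the miR-34c arm ratio (−2.61) had one of 0.0969. Depth limits the 3p arms and miR-34b most, since several of their values rest on fewer than 10 reads.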

Other observations

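The rows next to each arm in mean level over all 6 libraries give its place in the A549 profile. miR-34a-5p (708 normalized counts) stood between miR-345-5p and miR-589-5p above and miR-532-5p and miR-424-3p below. miR-34c-5p (251) stood between miR-30c-2-3p and miR-149-5p above and miR-671-3p and miR-889-3p below. miR-34b-5p (19.0) had miR-127-5p and miR-485-3p above it and miR-573 and miR-4671-3p below it. Around miR-34a-3p (14.0) were miR-4517, miR-212-5p, miR-585-5p and miR-548am-5p. Around miR-34c-3p (10.3) were miR-656-3p, miR-3182, miR-376b-3p and miR-3691-5p, and around miR-34b-3p (7.67) were miR-185-3p, miR-200c-3p, miR-874-3p and miR-219a-1-3p.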
